A study of Homo sapiens with 6 samples.

Results

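The 10 genes described here are the immediate early transcription factors FOS, FOSB, FOSL1, FOSL2, JUN, JUNB, JUND, EGR1, NR4A1 and NR4A2. They were taken by gene name from a table of 58825 genes, and each name had 1 identifier. All 10 passed the filter on low values, a mean of at least 0.1 FPKM (fragments mapped to a gene, scaled by its length and by the depth of the library) over the 6 samples, which left 17774 genes for testing. RNA-seq was performed on 6 samples of PANC-1, an established human cell line from a pancreatic carcinoma. Of these, 3 samples, MA PANC-1 1 to 3, were exposed to 40 μM maslinic acid (MA), a plant triterpene, for 24 h, and 3 samples, PANC-1 1 to 3, are labelled as untreated, at 0 μM. The labels do not say whether these controls received a solvent, while the study's methods name DMSO as the control treatment of its cell cultures. The methods call the samples of a group biological replicates, without saying how the cultures were kept apart, and p-values measure the spread between these samples. The treated libraries held 56978375, 63984133 and 58181114 estimated counts and the untreated libraries 70275355, 65607669 and 59422939, in the order of their numbers, which is kept for all values below. In every library this sum exceeds the number of valid reads that the study lists, so it is not the depth in reads.

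Immediate early genes are switched on without new protein synthesis when growth factors, stress or calcium signals reach the nucleus, often through MAP kinases that act on SRF with its ELK partners and on CREB. Fos and Jun proteins pair through leucine zippers to form AP-1, which binds TRE sites, while EGR1 is a zinc finger factor and the NR4A proteins are orphan nuclear receptors. In cells grown in serum most of these transcripts are brief, but FOSL1 is known to stay high in carcinoma cells with active RAS and ERK signalling.

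The cell line was checked by its markers. The epithelial keratins KRT8, at 141 to 225 FPKM, and KRT18, at 278 to 338 FPKM, and the mesenchymal VIM, at 521 to 754 FPKM, were abundant in all 6 samples. KRT19, at most 0.109 FPKM, and EPCAM, at most 0.132 FPKM, were near absent, so not all epithelial markers were present. The leukocyte gene PTPRC reached at most 0.0120 FPKM and CD3E was listed at 0.0001, the value the table gives a gene with no reads, while CD68 lay between 25.6 and 40.9 FPKM. MA PANC-1 2 stood apart from the other samples, with a count-weighted GC content of 51.2% against 49.8% to 50.3% and a first principal component score of −73.6 against −29.5 to 44.9. MA PANC-1 1 stood apart on the second component, at 72.2 against −43 to 7.9, and values without the one or the other are given beside some of the genes.

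The start regions of the genes are shown because they carry the letters through which these genes are known to be switched on. Of the 10 genes, 8 had an entry in the RefSeq promoter table (GRCh38.p14), and the starts used here are those of the entries. For JUN and FOSL2 the entry lies inside the gene as placed in the expression data. It spans 58783998 to 58784297 on chromosome 1 for JUN and 28392608 to 28392907 on chromosome 2 for FOSL2. The searched bases of these 2 genes are thus within the gene, not before it. The 250 bases before each start were searched on both strands for the CRE, TGACGTCA, its short core TGACG, the CArG box bound by SRF, the AP-1 site TGANTCA (TRE), the EGR site GCGNGGGCG, the NR4A site AAAGGTCA (NBRE) and TATAAA. The core stood in 7 of these genes, against 21.2% of all 35116 entries, and every full CRE also counts as a core. In this window EGR1 alone held a CArG box, as did 1.16% of all entries, and FOS, FOSB and JUNB held TATAAA, as did 10.7%. The full CRE was found in JUND alone, against 1.65% of entries, and EGR1 also held an EGR site, against 8.41%. No TRE (6.57% of entries) and no NBRE (1.05%) was found in these windows. Capitals mark CRE cores, CArG boxes, TATAAA and the full CRE, each run is written 5′ to 3′ on the strand of its gene, and a match of letters is a description of sequence, not a measured binding site.
EGR1 (chr5:138465338-138465423, plus strand): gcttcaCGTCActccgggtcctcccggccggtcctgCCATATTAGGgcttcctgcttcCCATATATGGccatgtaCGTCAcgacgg
FOS (chr14:75278758-75278806, plus strand): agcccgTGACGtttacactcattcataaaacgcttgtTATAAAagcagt
FOSB (chr19:45467930-45467977, plus strand): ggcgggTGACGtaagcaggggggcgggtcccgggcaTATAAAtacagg
JUN (chr1:58784160-58784176, minus strand): ccatggTGACGggcggg
JUND (chr19:18281698-18281828, minus strand): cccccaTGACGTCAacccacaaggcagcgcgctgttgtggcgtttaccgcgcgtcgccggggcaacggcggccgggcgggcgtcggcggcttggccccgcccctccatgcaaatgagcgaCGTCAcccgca

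The question was how the level of each gene differed after 24 h with MA. FOSL1 was the most abundant of the 10 and did not pass the test, NR4A2 fell, and NR4A1 was higher at an unadjusted p but by less than 2-fold. By the thresholds of the study, a fold of at least 2 or at most 0.5 with an unadjusted p under 0.05 in edgeR's quasi-likelihood test, 1 of the 10 genes, NR4A2, was a DEG, and it was lower, against 1.92% of all genes tested in either direction, 1.25% lower and 0.675% higher. At an unadjusted p under 0.05, 2 of the 10 passed, NR4A1 and NR4A2, against 11.2% of all genes. After Benjamini-Hochberg adjustment over all genes tested none of the 10 passed in edgeR, against 0.0394% of all genes. In DESeq2 1 of the 10 passed, NR4A1, against 263 of the 17774 genes tested. Separate ranges for the treated and untreated samples were seen in 3 of the 10, JUNB and NR4A1 higher and NR4A2 lower, against 19.9% of all genes. The median log2 fold change was 0.22 over the 10 genes, 7 of them positive, and −0.00 over all genes tested. The median of the 10 was 0.09, with 6 positive, when each library was corrected for the GC content of genes, and 0.07, with 5 positive, without MA PANC-1 2.

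**Figure D1:**
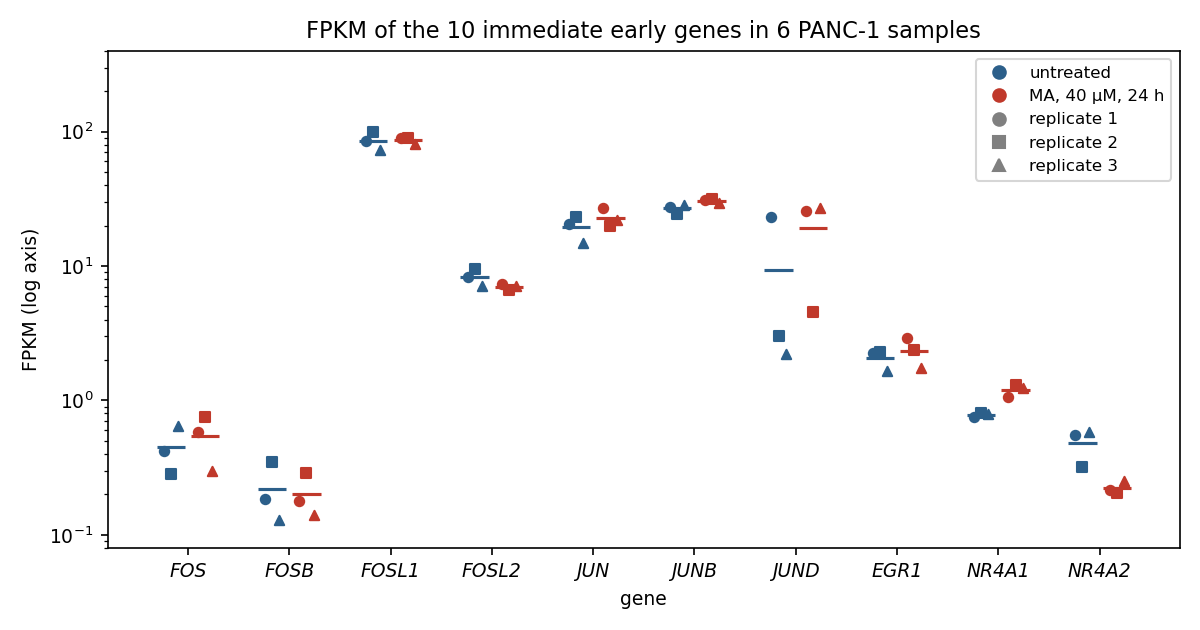
FPKM of each gene on a log axis, with untreated PANC-1 in blue, MA PANC-1 in red, a marker shape for each replicate number and a line at the group mean. FOSL1 lies at the top, near 86 FPKM, FOS and FOSB lie below 1 FPKM, JUND is spread within both groups, and only JUNB, NR4A1 and NR4A2 have groups that do not overlap.

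Levels in PANC-1 cells spanned more than 2 orders of magnitude per length. FOSL1 exceeded 97.7% of the genes tested in mean FPKM of the untreated samples, JUNB 91.3%, JUN 88.1%, JUND 76.7%, FOSL2 74.3%, EGR1 46.3%, NR4A1 31.2%, NR4A2 24.3%, FOS 23.3% and FOSB 12.5%. In this order of untreated levels, the samples of neighbouring genes overlapped for JUN and JUND, for JUND and FOSL2, for NR4A2 and FOS, and for FOS and FOSB, and were separate for the other neighbours. In MA PANC-1 the order was the same down to NR4A1, after which FOS came before NR4A2 and FOSB. There the overlapping neighbours were JUN with JUND, JUND with FOSL2, and NR4A2 with FOSB.

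Among the Fos proteins, FOSL1 (FRA-1) and FOSL2 (FRA-2) lack the strong activation domain of FOS and FOSB and are the longer lived forms. FOSL1 (ENSG00000175592, GRCh38 chromosome 11, 65892049 to 65900526, minus strand) measured 89.2, 90.5 and 80.4 FPKM in MA PANC-1 and 84.9, 99.1 and 72.8 FPKM in PANC-1. PANC-1 2 was the highest and PANC-1 3 the lowest, and the groups overlapped. Its log2 fold change after MA was 0.06 (standard error 0.14, 95% interval −0.27 to 0.38, adjusted p = 0.896 from edgeR). The sign was not stable, at −0.08 with the GC correction, −0.02 when MA PANC-1 2 and −0.05 when PANC-1 3 was left out. FOSL2 (ENSG00000075426, chromosome 2, 28392448 to 28417312, plus strand) measured 7.36, 6.63 and 7.12 FPKM in MA PANC-1 and 8.33, 9.57 and 7.10 FPKM in PANC-1. Only PANC-1 3, the lowest of its group, fell within the MA range, and the log2 fold change was −0.21 (standard error 0.13, 95% interval −0.51 to 0.09, unadjusted p = 0.147 from edgeR). Without PANC-1 2 it was −0.10, and the unadjusted p was 0.0386 with the GC correction and 0.0392 without PANC-1 3. A gene named AC104695 overlaps FOSL2 on the other strand, and adding the counts of ENSG00000270640, which overlaps it on the same strand, left the value at −0.21.

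FOS, the classical partner of JUN, and FOSB were near the floor. FOS (ENSG00000170345, chromosome 14, 75278826 to 75282230, plus strand) measured 0.579, 0.753 and 0.296 FPKM in MA PANC-1 and 0.422, 0.285 and 0.651 FPKM in PANC-1, from estimated counts of 68 to 187. High and low samples occurred in both groups, and the log2 fold change of 0.32 had a standard error of 0.44 and a 95% interval of −0.72 to 1.36. FOSB (ENSG00000125740, chromosome 19, 45467995 to 45475179, plus strand) measured 0.179, 0.286 and 0.140 FPKM in MA PANC-1 and 0.186, 0.347 and 0.128 FPKM in PANC-1. The second sample was the highest of each group, the groups overlapped, and the log2 fold change was −0.08 (standard error 0.47, 95% interval −1.17 to 1.02). ERCC1 overlaps FOSB on the other strand, and the sources used here do not say whether strand was used in counting, so reads of these genes may be mixed. For FOS the sign turned to −0.04 without MA PANC-1 2, and for FOSB the value was 0.40 without PANC-1 2, 0.03 without MA PANC-1 1 and −0.47 without MA PANC-1 2, so a difference between the groups was not detectable for either gene.

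Because FPKM is per length, the make-up of each family could be given as shares of its summed FPKM. FOSL1 made up 91.7%, 92.2% and 91.4% of the Fos family in MA PANC-1 and 90.5%, 90.7% and 90.2% in PANC-1. FOSL2 held 7.56%, 6.75% and 8.10% in MA PANC-1 and 8.88%, 8.76% and 8.80% in PANC-1. For both genes the groups did not overlap, FOSL1 with the larger share and FOSL2 with the smaller share after MA, and the exact two-sided permutation test gave p = 0.1, the smallest that 3 samples against 3 allow, with 0.35 after adjustment over the 7 shares. The difference was 1.29 percentage points for FOSL1 and −1.34 for FOSL2 (3.28 and −3.38 as shares of summed counts, which are not per length), while the summed Fos level was 94.5 ± 5.67 FPKM (SD, n = 3) in MA PANC-1 and 94.6 ± 14.3 FPKM (SD, n = 3) in PANC-1. FOS and FOSB each stayed under 1% of the family in all 6 samples.

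The Jun genes, each of a single exon in the annotation, encode the partners that AP-1 requires, with JUN the strong activator, JUNB a weaker one that can restrain JUN, and JUND commonly linked to slower growth. JUN (ENSG00000177606, chromosome 1, 58780788 to 58784327, minus strand) measured 27.0, 19.8 and 22.0 FPKM in MA PANC-1 and 20.5, 23.1 and 14.7 FPKM in PANC-1. MA PANC-1 1 was highest and PANC-1 3 lowest, with overlap between the groups and a log2 fold change of 0.27 (standard error 0.19, 95% interval −0.16 to 0.71, unadjusted p = 0.185 from edgeR). It was 0.16 with the GC correction, 0.15 without MA PANC-1 1, 0.10 without PANC-1 3 and 0.42 without PANC-1 2. JUNB (ENSG00000171223, chromosome 19, 12791486 to 12793315, plus strand) measured 31.0, 31.5 and 29.5 FPKM in MA PANC-1 and 27.7, 24.5 and 28.7 FPKM in PANC-1. All 3 MA samples lay above all 3 untreated samples, by a small margin, and the test was not passed (log2 fold change 0.22, standard error 0.11, 95% interval −0.03 to 0.48, unadjusted p = 0.0725 from edgeR). With the correction for GC content the JUNB value was 0.07.

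JUND (ENSG00000130522, chromosome 19, 18279760 to 18281622, minus strand) measured 25.7, 4.57 and 27.2 FPKM in MA PANC-1 and 23.0, 3.03 and 2.20 FPKM in PANC-1. The estimated counts were 3241, 652 and 3522 against 3595, 444 and 290. The values thus fell at 2 levels, and the high level was found in MA PANC-1 1, MA PANC-1 3 and PANC-1 1, so that each group held samples of both levels. The reads were not analysed here, so whether these levels lie in the RNA or in the estimation of the deposited values cannot be told apart, for JUND and for IER2 below. The log2 fold change of 1.04 had a standard error of 0.97, a 95% interval of −1.26 to 3.33 and an unadjusted p of 0.322 from edgeR, and it moved with each sample left out. It was 2.87 without PANC-1 1, with an unadjusted p of 0.00711, 0.61 without PANC-1 2, 0.57 without PANC-1 3, 0.77 without MA PANC-1 1, 1.49 without MA PANC-1 2 and 0.71 without MA PANC-1 3. Among 11470 genes with a mean of at least 1 FPKM, 73, or 0.636%, had a highest sample at least 5 times the lowest in both groups, and JUND was one of them, at 10.5 times in PANC-1 and 5.95 times in MA PANC-1, where the median gene was at 1.17 and 1.32 times. Its GC content, 69.7%, was the highest of the 10 genes, and the part of GC content in the split was not tested beyond the correction, under which the log2 fold change was 0.98.

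IER2, an immediate early gene of the wider list that was singled out after its values were seen, also took 2 levels. It measured 32.9, 35.1 and 0.877 FPKM in MA PANC-1 and 1.003, 34.7 and 0.868 FPKM in PANC-1. Its high samples were MA PANC-1 1, MA PANC-1 2 and PANC-1 2, of which JUND was high in MA PANC-1 1 alone. The summed Jun family was 72.8 ± 14.8 FPKM (SD, n = 3) in MA PANC-1 and 55.8 ± 13.6 FPKM (SD, n = 3) in PANC-1 (exact two-sided permutation p = 0.2), and JUND made up 4.82% to 34.6% of it. JUN and JUNB together, a sum formed after the values of JUND were seen, were at 53.6 ± 3.81 FPKM (SD, n = 3) in MA PANC-1 and 46.4 ± 2.62 FPKM (SD, n = 3) in PANC-1, with no overlap (exact two-sided permutation p = 0.1).

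**Figure D2:**
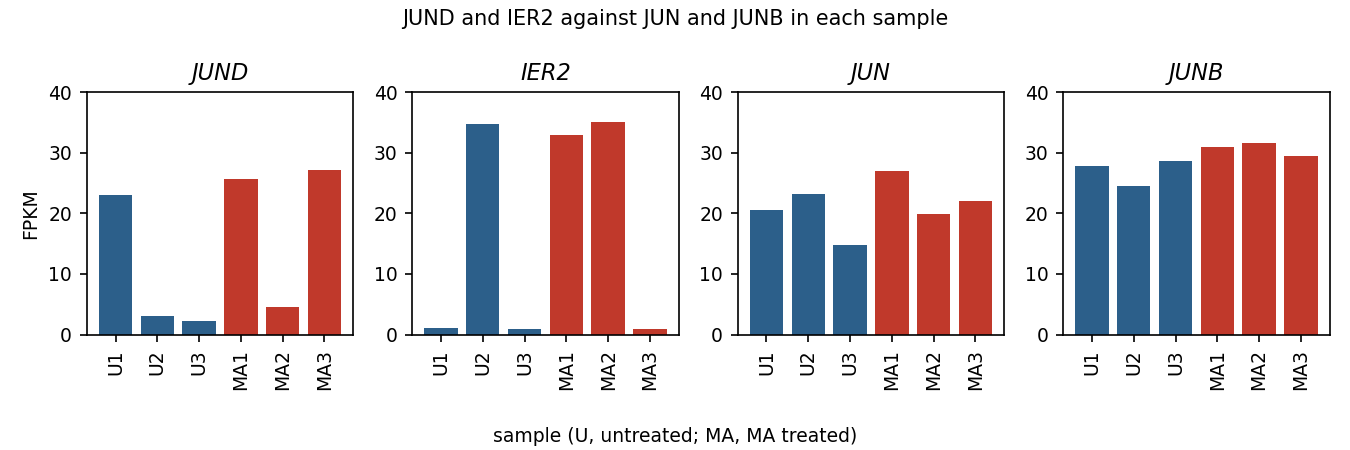
FPKM of JUND, IER2, JUN and JUNB in each sample, as bars from 0 on a common axis, with untreated samples (U1 to U3) in blue and MA samples (MA1 to MA3) in red. JUND was high in U1, MA1 and MA3 and IER2 in U2, MA1 and MA2, whereas JUN and JUNB stayed between 14.7 and 31.5 FPKM in all 6 samples.

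EGR1 (ENSG00000120738, chromosome 5, 138465479 to 138469303, plus strand), which binds GC-rich sites and is among the first genes to answer ERK signalling, measured 2.91, 2.38 and 1.76 FPKM in MA PANC-1 and 2.26, 2.30 and 1.65 FPKM in PANC-1. The third sample was the lowest of each group, the groups overlapped, and the log2 fold change was 0.22 (standard error 0.25, 95% interval −0.36 to 0.80, adjusted p = 0.743 from edgeR). The value was 0.11 with the GC correction, 0.06 without MA PANC-1 1, 0.08 without PANC-1 3 and 0.41 without MA PANC-1 3. Its relatives EGR2 and EGR3 did not pass the filter on low values, and EGR4, named after its values were seen, measured 0.233, 0.228 and 0.0228 FPKM in MA PANC-1 and 0.0757, 0.434 and 0.413 FPKM in PANC-1. The EGR4 groups overlapped, with a log2 fold change of −0.86 (standard error 0.90).

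The NR4A receptors act without a known ligand, and NR4A1 (NUR77) and NR4A2 (NURR1) bind the same DNA site. NR4A1 (ENSG00000123358, chromosome 12, 52022832 to 52059507, plus strand) measured 1.06, 1.299 and 1.24 FPKM in MA PANC-1 and 0.749, 0.809 and 0.793 FPKM in PANC-1, from estimated counts of 526, 732 and 635 against 463, 468 and 415. All MA samples lay above all untreated samples, and the lowest of the MA samples was MA PANC-1 1. The log2 fold change was 0.65 (standard error 0.17, 95% interval 0.25 to 1.05, unadjusted p = 0.00613, adjusted p = 0.388 from edgeR), and 0.54 when MA PANC-1 2 was left out. On the log2(FPKM + 1) scale, which understates the change of low genes, limma gave 0.30. The unadjusted p stayed under 0.05 in all 19 alternatives that gave a value, and the adjusted p ranged from 0.0453, in DESeq2, to 0.729. A gene named AC025259 overlaps NR4A1 on the other strand.

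NR4A2 (ENSG00000153234, chromosome 2, 156324437 to 156332721, minus strand) measured 0.214, 0.206 and 0.253 FPKM in MA PANC-1 and 0.551, 0.317 and 0.579 FPKM in PANC-1. The estimated counts were 58, 64 and 71 against 184, 99 and 164, which puts the gene in the lower part of the genes tested. All MA samples lay below all untreated samples, and PANC-1 2 was the untreated sample nearest to them. On the log2 scale NR4A2 fell by 1.05 after MA (standard error 0.31, 95% interval −1.77 to −0.33, unadjusted p = 0.0108, adjusted p = 0.388 from edgeR), and the adjusted p ranged from 0.142 to 0.729 over the 19 alternatives that gave a value. In bulk RNA a lower level in each cell and fewer cells with the transcript cannot be told apart. The DEG call rested on PANC-1 1 and PANC-1 3, since without the first the log2 fold change was −0.95 and without the second −0.90, while leaving out MA PANC-1 2 gave −1.03. In limma the NR4A2 value was −0.81 on the log2(FPKM + 0.1) scale and −0.27 on the log2(FPKM + 1) scale, neither of which reached the fold of a DEG. The ratio of NR4A1 to NR4A2 in FPKM, computed after these values were seen, was 4.94, 6.31 and 4.92 in MA PANC-1 and 1.36, 2.55 and 1.37 in PANC-1. NR4A3, the remaining gene of the family, measured 0.5003, 0.367 and 0.524 FPKM in MA PANC-1 and 0.363, 0.425 and 0.511 FPKM in PANC-1, with overlap and a log2 fold change of 0.13 (standard error 0.23).

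**Figure D3:**
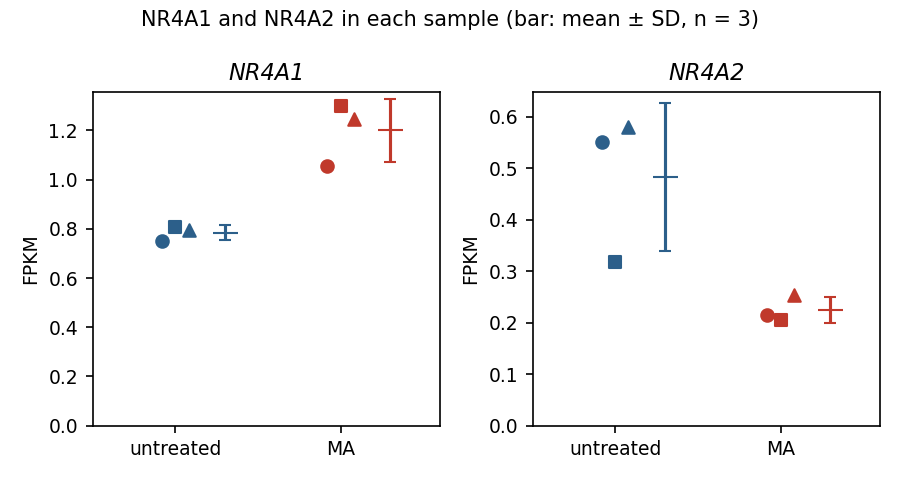
FPKM of NR4A1 and NR4A2 in the 3 untreated (blue) and 3 MA (red) samples, with a marker shape for each replicate number and the mean ± SD beside the points. The NR4A1 samples lie at 0.749 to 0.809 without MA and 1.06 to 1.299 with it, and the NR4A2 samples at 0.317 to 0.579 and 0.206 to 0.253.

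**Figure D4:**
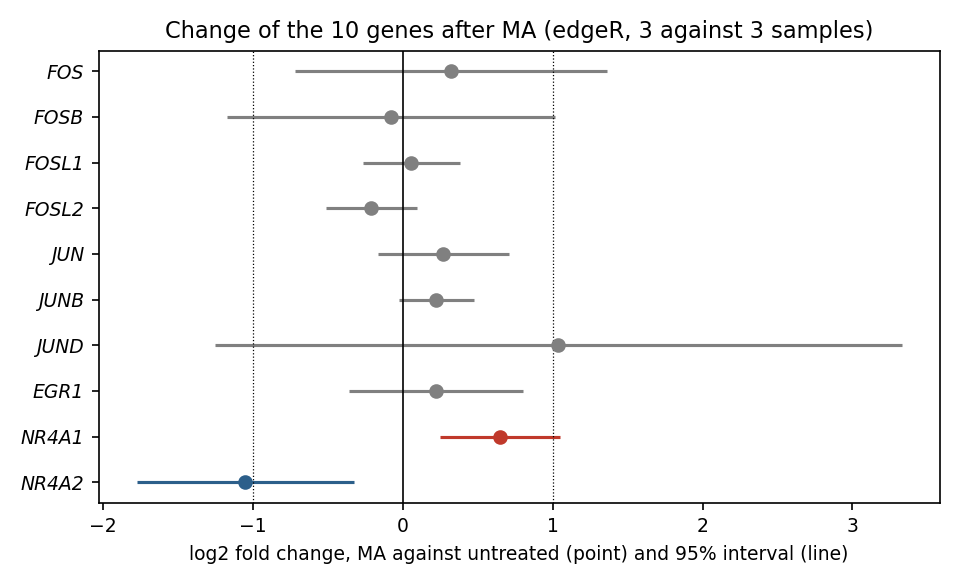
Log2 fold change of each gene after MA (point) with its 95% interval (line) from edgeR, where dotted lines mark a fold of 2 in either direction, red an interval above 0 and blue one below 0. The interval leaves out 0 for NR4A1 and NR4A2, and it is widest for JUND, at −1.26 to 3.33.

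The genes around these factors were described from 8 further lists. Of 129 genes found in the table, 119 passed the filter on low values, 1 was a DEG (ATF3, higher) and 27 had an unadjusted p under 0.05 in edgeR. Beside these and the counts for each list stand the shares over all genes tested, 1.92% DEGs, 11.2% with an unadjusted p under 0.05 and 19.9% with groups that did not overlap. DESeq2 also gave ATF3 as the 1 DEG among them. Genes named below beyond the DEG, the 2 of smallest p and the most abundant of each list were chosen after their values were seen.

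Of the other immediate early transcription factors, 4 of 17 tested had an unadjusted p under 0.05, against 11.2% of all genes. ATF3, a stress-induced bZIP factor that pairs with Jun proteins, measured 7.30, 5.57 and 12.7 FPKM in MA PANC-1 and 3.38, 4.55 and 4.81 FPKM in PANC-1. All MA samples lay above the untreated ones, MA PANC-1 3 by the most, and ATF3 rose, with a log2 fold change of 1.02 (standard error 0.29, unadjusted p = 0.00896, adjusted p = 0.388 from edgeR). The DEG call of ATF3 rested on 2 samples, since leaving out MA PANC-1 3 gave 0.65 and leaving out PANC-1 1 gave 0.88, and limma on log2(FPKM + 0.1) gave 0.92. ID3, an inhibitor of helix-loop-helix factors, had a log2 fold change of 0.50, CSRNP1, a nuclear protein induced by AXIN, 0.47, and KLF4, a zinc finger factor of epithelial differentiation, −0.61. The most abundant gene of the list was ID1, at 85.8 to 111 FPKM, with a log2 fold change of 0.21 that did not pass the test. The median of the list was 0.18.

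Among the other immediate early effectors 6 of 18 tested had a p under 0.05, against 11.2% of all genes, and none was a DEG. PHLDA1, a pleckstrin-like protein that restrains growth factor signals, measured 18.7, 15.4 and 20.2 FPKM in MA PANC-1 and 28.3, 31.1 and 29.3 FPKM in PANC-1, and PLK2, a stress-responsive kinase, 9.16, 6.96 and 10.8 against 14.2, 14.1 and 15.7 FPKM. Both were lower in every MA sample, with log2 fold changes of −0.67 for PHLDA1 (standard error 0.10, adjusted p = 0.158) and −0.68 for PLK2 (standard error 0.14, adjusted p = 0.346) in edgeR. RHOB, a small GTPase, and BTG2, an antiproliferative gene, were higher in every MA sample, at 0.51 and 0.59. SGK1, a serum-induced kinase, was lower in every MA sample, at −0.39. EDN1, the vasoconstrictor endothelin, had overlapping groups and a value of −0.99, just short of the fold of a DEG, which it passed with library totals alone (−1.03), with upper quartile factors (−1.001) and without PANC-1 2 (−1.32). CCN1, a secreted matrix protein and the most abundant gene of the list, was at 104 to 134 FPKM with a log2 fold change of 0.03. The median of the list was −0.02.

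The MAP kinase cascade feeds these genes, and its feedback inhibitors are often themselves induced by ERK. None of the 19 kinases tested was a DEG in edgeR, and 3 had a p under 0.05, MAPK8 (JNK1) at −0.38, MAP2K3, the most abundant, at 0.35 and MAPK7 (ERK5) at 0.44. MAPK14 (p38) measured 7.48, 7.07 and 8.21 FPKM in MA PANC-1 and 7.49, 2.57 and 2.40 FPKM in PANC-1. The groups overlapped, and its log2 fold change was 0.90. MAPK14 became a DEG without PANC-1 1, at 1.64. It also became one with the replicate number as a block (1.12), with this block and the GC correction (1.15), and in limma on log2(FPKM + 0.1) (1.05) and log2(FPKM + 0.01) (1.07). None of the 15 feedback inhibitors was a DEG, while 6 had a p under 0.05, against 11.2% of all genes, and 7 had groups that did not overlap, against 19.9%. DUSP4, a nuclear phosphatase of ERK and JNK, measured 5.50, 5.32 and 6.04 FPKM in MA PANC-1 and 11.3, 10.1 and 9.75 FPKM in PANC-1. The MA samples were all lower, by 0.85 on the log2 scale on average (standard error 0.10, unadjusted p = 4.9e-05, adjusted p = 0.0791 from edgeR). ERRFI1, an inhibitor of the EGF receptor and the most abundant of the list, measured 51.2, 41.5 and 54.2 against 68.6, 74.2 and 65.6 FPKM, also lower in every MA sample (log2 fold change −0.47). The 6 genes did not share a direction, with DUSP8 at 0.62 and DUSP16 at 0.40 higher. The medians were 0.13 for the kinases and 0.01 for the inhibitors.

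Partners and target genes completed the lists. Of 11 bZIP partners tested, 1 had a p under 0.05, MAFK, a small Maf protein, at 0.46. The list of SRF, its cofactors, the RXR genes, NAB1 and NAB2 had 10 genes tested. Of these 1 had a p under 0.05, MRTFA, the actin-regulated coactivator of SRF, at 0.39. The most abundant of the SRF and RXR list, the ERK-activated SRF partner ELK1, was at 29.04 to 36.4 FPKM with a log2 fold change of 0.19 that did not pass. CREM and ELK4 had the next smallest p, at log2 fold changes of −0.35 and −0.30, and neither passed. Of 19 AP-1 target genes tested, 5 had a p under 0.05 and none was a DEG, with the growth factors EREG at −0.65 and AREG at −0.38, the urokinase PLAU at −0.34, the adhesion receptor CD44 at −0.35 and the heme-degrading enzyme HMOX1 at 0.53. PLAU measured 53.9, 55.1 and 54.5 FPKM in MA PANC-1 and 71.5, 76.4 and 64.9 FPKM in PANC-1, all MA samples lower. VIM, an intermediate filament gene and the most abundant of this list, had a log2 fold change of −0.19 that did not pass. In this list the groups did not overlap in 10 of the 19 genes, 8 of them lower, against 19.9% of all genes in either direction, and the median was −0.15. Of the 10 EGR1 target genes, THBS1 alone had a p under 0.05, at −0.35. PDGFA, a growth factor chain with the next smallest p, had 0.29 (unadjusted p = 0.0904 from edgeR), and GDF15, the most abundant at 98.3 to 161 FPKM, had 0.08.

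**Figure D5:**
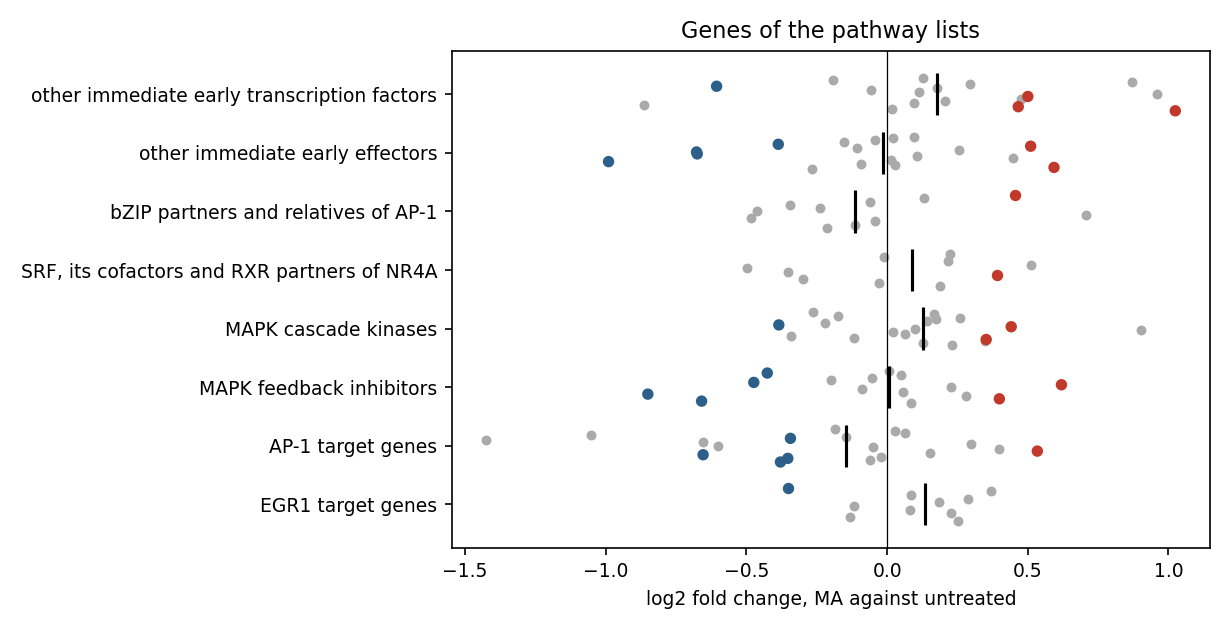
Log2 fold change after MA of each tested gene of the 8 further lists, as points (red higher and blue lower at an unadjusted p under 0.05, grey otherwise), with a black bar at the median of the list. The medians lie between −0.15, for AP-1 target genes, and 0.18, for other immediate early transcription factors.

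For the most abundant gene of each group, the 3 genes of at least 1 FPKM with the most similar pattern over the 6 samples were taken by Pearson's r of log2(FPKM + 0.1). These r are descriptive, since the points are 6 libraries that every gene shares, with their depths and treatments. FOSL1 was matched by SAFB (r = 0.999), IFT140 (0.988) and ERN1 (0.980), and 60 of 11469 genes had an r over 0.9. JUNB was matched by PSMC1P1 and TMEM99 (both 0.986) and SLC43A2 (0.985), out of 139 genes over 0.9. EGR1 was matched by U2AF1L5 and C17orf51 (both 0.982) and ZSCAN21 (0.978), out of 54. NR4A1 was matched by ATP5MF (0.995), PCK2 (0.992) and RPE (0.981), out of 205 genes of 11470.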

How the data were processed

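The table deposited by the authors gives 2 values per gene and sample: FPKM, which they scaled for length and depth, and an estimated count in whole numbers without scaling. Per the labels, libraries were made from poly(A) RNA with strand-marking dUTP and sequenced as paired ends, and the submitters' processing notes name cutadapt 1.9, HISAT2 2.0.4, StringTie 1.3.4d, edgeR and DESeq2. Gene positions are those of GRCh38. Samples were grouped by treatment as labelled. Counts were tested with edgeR 4.0.16 (R 4.3.3), by the quasi-likelihood test with TMM factors over the 17774 genes with a mean of at least 0.1 FPKM, and adjusted by Benjamini-Hochberg over all of them. The standard error is the log2 fold change divided by the square root of F. The estimated counts summed to 56978375 to 70275355 a library, more than the valid reads the study lists, and precision rests on the spread between replicates. Each library was counted as a separate sample, as labelled. Replicates differed by more than counting noise, but libraries prepared separately from the same culture may do so too, so this cannot show that the cultures were separate.

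The thresholds of a DEG are those of the study's methods. The 10 genes and the lists were chosen with earlier results of these data known, and no count of them is independent evidence. Named by rule were all 10 genes and, from each further list, every DEG, the 2 genes of smallest p and the most abundant gene. Other genes of these lists are also named, chosen after their values were seen. From 130 names, 129 were found and the other is not analysed here. Alternatives were DESeq2 1.42.0, limma 3.58.1 on log2(FPKM + 0.1), with pseudocounts of 0.01 and 1, other filters and scalings, halved counts, a GC offset, the replicate number as a block, summing overlapping genes and leaving out each sample. The edgeR steps were tested on simulated data. The proteome and other assays of the study were not analysed here.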

Additional observations from a re-analysis of the deposited data

How the results depend on the processing

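The direction of FOSL2, JUN, JUNB, JUND, EGR1, NR4A1 and NR4A2 was the same in every alternative run, as was the unadjusted p of NR4A1 and NR4A2 under 0.05 wherever they were tested, but the size was not. With a sample left out in turn, the log2 fold change ranged from −0.0392 to 0.666 for FOS, from −0.469 to 0.399 for FOSB and from −0.0503 to 0.176 for FOSL1, and FOSL1 also turned to −0.0794 with a GC offset and to −0.0715 with that offset and the replicate block. The share of the family, MA minus untreated, ranged from −0.0614 to 0.211 percentage points for FOS, from −0.0533 to 0.0331 for FOSB, from −7.05 to 1.37 for JUN, from −12.8 to −0.0493 for JUNB and from 5.06 to 19.1 for JUND. The number of the 10 genes that were DEGs was 0 with limma on log2(FPKM + 0.1), 0 with a pseudocount of 1 and 0 with a filter at a mean of 1 FPKM, which leaves NR4A2 out, and 0 to 1 with a sample left out. Without PANC-1 1 the 1 DEG was JUND in place of NR4A2. DESeq2 gave 1 of the 10 genes with an adjusted p under 0.05, NR4A1, against 263 of the 17774 genes tested, and no p for JUND. DEGs among all genes tested numbered 342, against 44 with a pseudocount of 1, 93 with the filter at 1 FPKM, 569 with no filter and 326 to 534 with a sample left out, the highest without MA PANC-1 3. Genes of the further lists that were DEGs numbered 1 to 4 with a sample left out, and they were not the same genes, since ATF3 was lost without MA PANC-1 3 (BATF3 called instead) and without PANC-1 1 (BATF3, MAPK14 and MMP3).

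Samples with the same replicate number did not deviate together (correlations of 0.029, 0.050 and 0.072), so the numbers were not taken as pairs. With the replicate block 327 genes were DEGs and 0 had an adjusted p under 0.05, against 7 without it, 33 with the GC offset and 263 with DESeq2. The block changed no call among the 10 genes, with NR4A2 at −1.01 and NR4A1 at 0.64, but in the further lists ATF3, at 0.97, was no longer a DEG and MAPK14, at 1.12, was. Summing identifiers that share a name gave no value, since each name had 1. FOS, FOSB and NR4A2, with estimated counts of 52 to 187, had the lowest estimated counts of the 10 genes, and their values are the least precise by count.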
